A study of Mus musculus with 18 samples.

Results

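Serum reduction starts the differentiation of confluent myoblasts, and the question taken up here is whether cells without LAP2α answer it differently from cells with it. LAP2α is the nucleoplasmic isoform encoded by *Tmpo*, binds lamin A/C in the nuclear interior and, through this complex, is known to act on the retinoblastoma protein pRb and cell cycle exit. Myoblasts deprived of serum leave the cell cycle, differentiate through the myogenic transcription factors MyoD and myogenin, and then produce the sarcomere proteins of the muscle fibre. For each gene the genotype difference in response was the change from D0 to D2 in LAP2α knockout (KO) cells minus the change from D0 to D2 in wildtype (WT) cells, on the log2 scale, computed for each replicate number. A negative value therefore means a weaker rise or a stronger fall in KO cells. It was formed for all 17672 genes that passed a minimum of expected counts, out of 19153 listed, from 12 of the 18 RNA-seq libraries of the series.

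The cells were immortalized mouse myoblasts of a p53 knockout line, so that WT and KO libraries share the loss of p53. KO cells had been made with Cas9 and an sgRNA against LAP2α, WT control cells had received Cas9 with an empty guide vector, and both were sorted as bulk populations rather than clones. D0 cells were confluent in 20% serum, and D2 cells had spent 48 hours in 5% serum. The 6 libraries of proliferating cells (Prol) entered the estimate of the spread and no difference given here. Each group had 3 libraries with replicate numbers from the labels. The labels do not say whether these were separate cultures, so the p-values measure the spread between these libraries, which may be technical. Values are in CPM, expected read counts scaled to the library total and a TMM factor, and the 12 libraries held 27515553 to 41619016 expected counts, which puts the limit of 3 counts at 0.0651 to 0.117 CPM.

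*Tmpo* itself (chr10:91147571-91181315, minus strand, GRCm38) was measured over all its transcripts, so that LAP2α is not separated from the other LAP2 isoforms. At D0 it was at 257, 239 and 302 CPM in WT replicates 1 to 3 and at 224, 191 and 259 CPM in KO replicates. At D2 it was at 106, 150 and 157 CPM in WT and at 94.5, 108 and 157 CPM in KO. *Tmpo* fell in both genotypes, the ranges of WT and KO overlapped in each state, and the fall did not differ detectably between them (log2 difference 0.04, SE 0.30, unadjusted p = 0.9, limma). These values neither check nor contradict the genotype labels, since an edited transcript is still counted.

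Over all genes the response had a slope near 1 between the genotypes. A gene was called when its unadjusted p in the limma fit was under 0.05, its change exceeded 1.5-fold, and 1 or more of the libraries compared reached 10 CPM. By this rule 3660 genes (20.7% of those tested) changed from D0 to D2 in WT cells, 1840 up and 1820 down, and 3992 (22.6%) changed in KO cells, 1859 up and 2133 down. Both lists held 3208 genes in the same direction, and 0 genes were called in opposite directions. Over the 4437 genes called for their mean response, the slope of the KO response on the WT response was 1.00, and it was 1.05, 0.969 and 0.985 within replicate numbers 1, 2 and 3. The slope is a description over genes, which are not independent of each other.

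**Figure D1:**
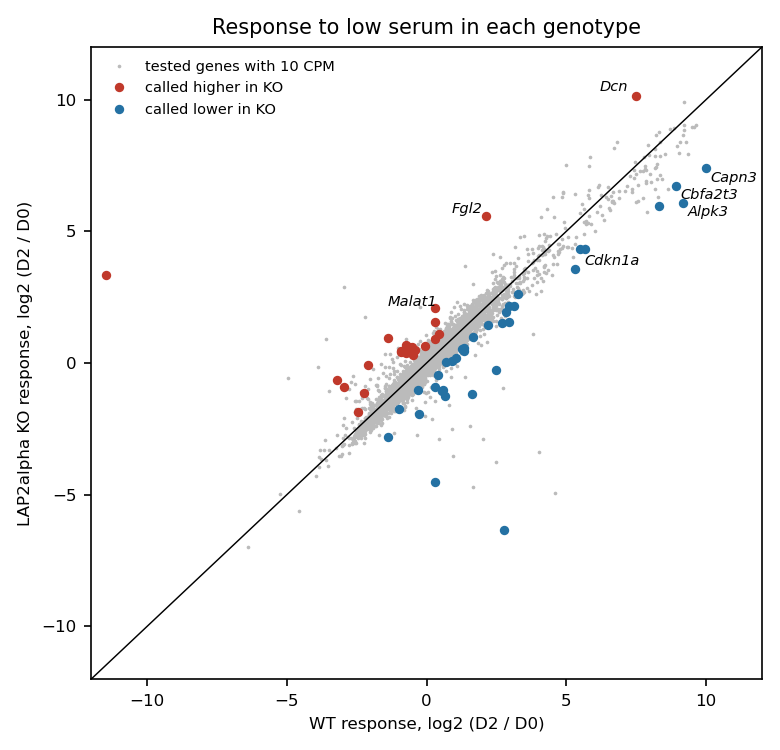
Change from D0 to D2 in WT cells (horizontal axis, log2) against the change in KO cells (vertical axis, log2), with the line of equality. Points are the 10723 tested genes that reached 10 CPM in 1 or more of the 12 libraries. The 23 genes called with a higher response in KO cells and the 34 called with a lower response are coloured, and the cloud lies along the line, with a slope of 1.00 over the 4437 genes called for their mean response.

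Against this background few genes passed the criteria for a genotype difference in response. They were 57 genes (0.323% of those tested), 23 higher in KO cells (0.13%) and 34 lower (0.192%). After Benjamini-Hochberg adjustment over all genes tested, limma called 0 genes, the smallest adjusted p was 0.99999, and this holds for every gene named in the following paragraphs. At an unadjusted p under 0.05 alone there were 315 genes (1.78%), a smaller share than the 0.05 that the threshold would pass if no gene differed. This fit makes no allowance for variation shared by same-numbered libraries. With the replicate number as a block in the fit, 655 genes had an unadjusted limma p under 0.05 and 151 were called, again 0 after adjustment. With voom weights and no block the criteria called 52 genes, and 0 after adjustment. A difference of 2 responses carries the error of 4 groups. In the fit without a block its median SE among genes with 10 CPM was 0.40 on the log2 scale, against 0.28 for the WT response alone. A difference of 0.86 was needed in that fit to reach the threshold at the median SE. The called genes are thus a ranking of candidates by size and spread in these libraries.

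Most genes called lower were called to rise in WT cells. Of the 34 these were 22, against 1840 of all 17672 genes tested. The WT response is subtracted in the difference, so that a negative difference favours genes with a WT rise, and this count is no support. Of the 22, 11 were also called to rise in KO cells, whereas 9 of the 34 were called to fall in KO cells. The 10 CPM minimum affects this split, since a gene with a weaker rise in KO cells reaches it less easily, and 15 rather than 11 rose in both by p and fold without it. The mean KO level was further from WT at D2 than at D0 for 22 of the 34. For 26 of the 34 it lay above WT at D0 and below WT at D2, so that an opposite D0 difference added to the call. Of the 34, 16 were also called lower in KO against WT at D2, a comparison that called 45 genes lower (0.255%) and 37 higher (0.209%). Every KO library at D2 lay below every WT library at D2 for 25 of the 34, against 674 (3.81%) of all genes tested. This share gives the count no support, because the D2 levels entered the calls. The 23 genes called higher held 10 called to fall in WT cells, 7 called to rise in KO cells and 6 called in neither. Among all genes tested, 1820 were called to fall in WT cells and 1859 to rise in KO cells. Of these 23, 3 were called higher in KO against WT at D2 and 7 were called lower at D0, where that comparison called 28 genes lower (0.158%) and 9 higher (0.0509%). For 20 of the 23 the mean KO level lay below WT at D0 and above WT at D2. Since a difference in response is made of its D0 and D2 parts, these counts show where the differences lay and are no separate support for them.

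Among the genes called lower was *Cdkn1a* (chr17:29090976-29100727, plus strand), which encodes the cyclin-dependent kinase inhibitor p21, a mediator of cell cycle exit that MyoD as well as p53 can induce. At D0 it was at 12.7, 5.01 and 10.1 CPM in WT replicates and at 13.3, 7.23 and 12.6 CPM in KO replicates. At D2 it was at 662, 327 and 278 CPM in WT and at 270, 223 and 161 CPM in KO. The genotypes overlapped at D0, and at D2 every KO library lay below every WT library. *Cdkn1a* rose 45.5-fold in WT and 20.0-fold in KO cells, a log2 difference of -1.18 (SE 0.51, 95% interval -2.27 to -0.10, unadjusted p = 0.0346), and the difference was -1.36, -1.08 and -1.11 in replicate numbers 1, 2 and 3. The call was lost without WT replicate 2 at D0 (-0.79), WT replicate 1 at D2 (-0.81), KO replicates 1 or 3 at D0 (-1.02 and -1.07) or KO replicate 3 at D2 (-0.98), and with any library or replicate number left out the unadjusted p ran from 0.0124 to 0.113. Of the other 23 genes of a list of cell cycle exit, none was called, among them *Cdkn1c*, which encodes the inhibitor p57 (log2 difference -0.24, SE 1.24), *Mdm2* (0.14) and *Trp53* (-0.34, SE 0.24, unadjusted p = 0.165). Although the line is labelled p53 knockout, *Trp53* was at 92.5 to 112 CPM in WT and 100 to 124.2 CPM in KO libraries at D0 and at 46.9 to 57.7 and 40.1 to 49 CPM at D2, and what these transcripts encode was not tested.

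*Srl*, *Myl6b* and *Ank1*, genes of the muscle membrane and contractile system, were called lower with separate groups at D2. *Srl* (chr16:4480216-4541816, minus strand) encodes sarcalumenin, a calcium-binding protein of the sarcoplasmic reticulum. It was at 21.5, 15.8 and 24.1 CPM in WT and 23.4, 19.6 and 28.8 CPM in KO libraries at D0, and at 247, 145 and 149 CPM in WT and 109, 111 and 101 CPM in KO libraries at D2. The groups overlapped at D0 and were apart at D2, with a rise of 8.68-fold in WT and 4.52-fold in KO cells (log2 difference -0.94, SE 0.32, unadjusted p = 0.00885). *Myl6b* (chr10:128494157-128498685, minus strand) encodes a myosin light chain. Its D0 levels were 5.98, 4.22 and 3.92 CPM in WT and 5.91, 4.51 and 4.53 CPM in KO libraries, and its D2 levels were 42.1, 34.4 and 26.1 CPM against 15.3, 23.5 and 18.9 CPM. It rose 7.25-fold in WT and 3.82-fold in KO cells, and the 3 KO libraries were the lowest at D2 (log2 difference -0.92, SE 0.33, unadjusted p = 0.0138). *Ank1* (chr8:22974844-23150497, plus strand), which encodes an ankyrin with short muscle forms that anchor the sarcoplasmic reticulum, reached 81.6, 49.8 and 48.5 CPM in WT and 38.5, 36.5 and 34.4 CPM in KO libraries at D2. Its D0 ranges of 5.87 to 13.7 CPM in WT and 9.9 to 16.6 CPM in KO overlapped, and its log2 difference was -1.17 (SE 0.43, unadjusted p = 0.0158). Without WT replicate 2 at D0 the *Ank1* difference was -0.87 and missed the threshold (unadjusted p = 0.0513), whereas *Srl* and *Myl6b* were called with any 1 library left out. With a whole replicate number left out, the unadjusted limma p reached 0.0513 for *Srl* and 0.0506 for *Myl6b*.

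*E2f2* (chr4:136172394-136196057, plus strand) was listed with the DNA replication genes and went the other way from most of them. It encodes an E2F transcription factor, a family whose activity pRb restrains. It was at 3.67, 3.49 and 4.59 CPM in WT and 3.27, 3.96 and 4.08 CPM in KO libraries at D0, and at 39.1, 27.4 and 26.2 CPM in WT and 13.9, 21.1 and 16 CPM in KO libraries at D2. It thus rose on serum reduction, 7.81-fold in WT and 4.45-fold in KO cells, with every KO library below every WT library at D2 (log2 difference -0.81, SE 0.32, unadjusted p = 0.0234). The call was lost without WT replicate 2 at D0 (-0.73), WT replicate 1 at D2 (-0.63) or KO replicate 1 at D2 (-0.68). In contrast, 32 of the 35 tested genes of that list fell in WT and 33 in KO cells.

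*Egln3* and *Acp6* were called to rise in WT and not in KO cells, where both missed the 1.5-fold criterion. The KO change was 0.44 on the log2 scale for *Egln3* (limma adjusted p = 0.148) and 0.53 for *Acp6* (limma adjusted p = 0.0444). *Egln3* (chr12:54178981-54203860, minus strand) encodes a prolyl hydroxylase of the oxygen-sensing pathway, and went from 13.9, 14 and 16.9 CPM at D0 to 46.4, 37 and 30.1 CPM at D2 in WT libraries, and from 21.1, 14.2 and 15.2 CPM to 23, 23.1 and 21.6 CPM in KO libraries. *Acp6* (chr3:97158777-97177299, plus strand), which encodes a lysophosphatidic acid phosphatase, went from 20.6, 19.4 and 21.2 CPM to 59, 52 and 38.2 CPM in WT libraries and from 18.5, 20.2 and 21.1 CPM to 26.9, 33.3 and 26.4 CPM in KO libraries. For both, the 3 KO libraries lay below the 3 WT libraries at D2. The difference itself was -0.88 (SE 0.31, unadjusted p = 0.0117) for *Egln3* and -0.74 (SE 0.26, unadjusted p = 0.013) for *Acp6*. *Spry1*, which encodes an inhibitor of growth factor signalling, was called as well, but its replicate differences were -0.80, -1.13 and 0.00 and its D2 ranges overlapped (47 to 57.3 CPM in WT, 43.6 to 54.1 CPM in KO).

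**Figure D2:**
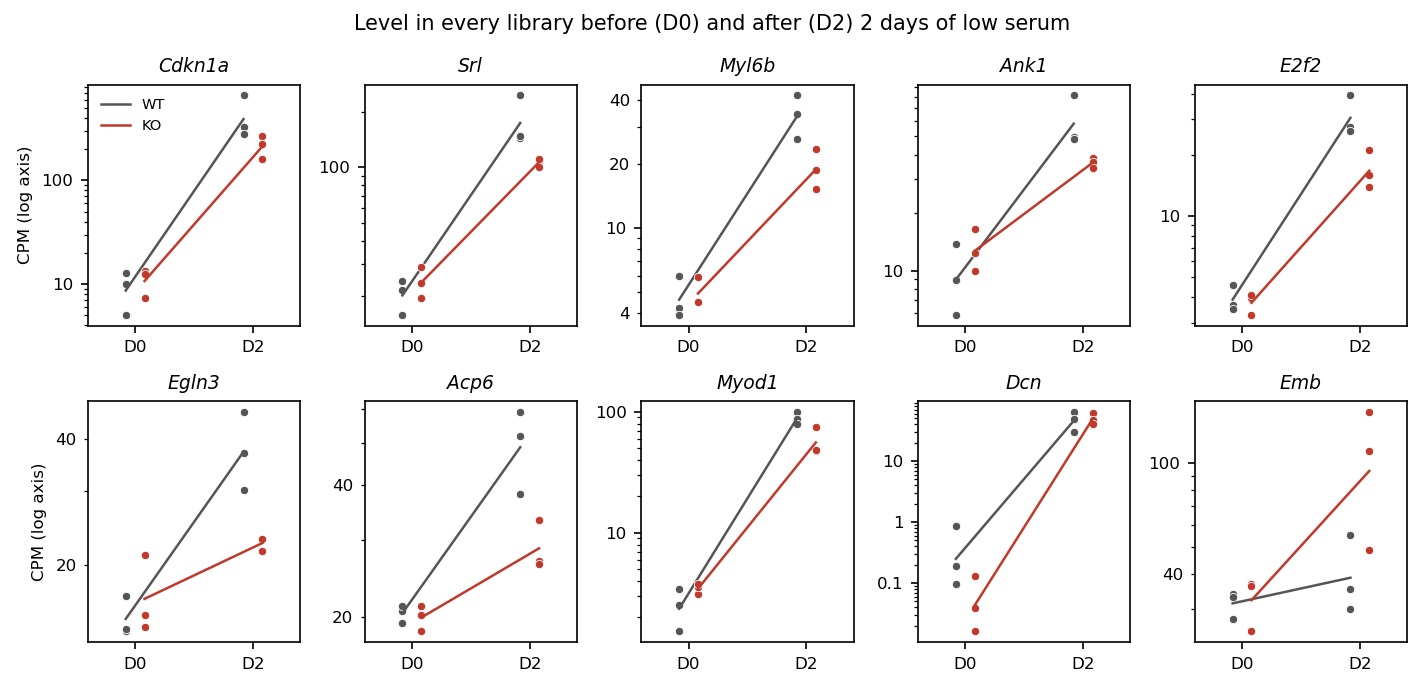
Level of 10 genes in each library of the 4 groups (CPM, log axis), with points for libraries and lines for the geometric mean of each group. *Cdkn1a*, *Srl*, *Myl6b*, *Ank1*, *E2f2*, *Egln3* and *Acp6* have overlapping genotypes at D0 and KO libraries below WT libraries at D2, as has *Myod1*, which was not called. *Dcn* lies near the detection limit at D0, and *Emb* has 2 of 3 KO libraries far above WT at D2.

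A further 6 genes called lower were close to silent before serum reduction, with every D0 library under 1 CPM. They are *Adamtsl2*, *Alpk3*, *Capn3*, *Cbfa2t3*, *Col23a1* and *Klhl30*. *Alpk3* (chr7:81057600-81105612, plus strand), which encodes a kinase of heart and skeletal muscle, had 0, 0 and 0 expected counts in WT and 1, 4 and 2 in KO libraries at D0. At D2 it reached 10.7, 9.09 and 11 CPM in WT and 3.32, 6.63 and 5.78 CPM in KO libraries, which did not overlap. *Capn3*, the muscle calpain, had at most 12.3 expected counts in a D0 library and reached 42.5, 32.2 and 31 CPM in WT and 12.9, 26 and 19.4 CPM in KO libraries. *Cbfa2t3*, a transcriptional corepressor, reached 16.1, 10.9 and 10.8 CPM in WT and 4.24, 6.63 and 5.54 CPM in KO libraries. *Adamtsl2*, an extracellular matrix protein, reached 18.2, 25.3 and 21.2 CPM in WT and 8, 14.3 and 11.4 CPM in KO libraries. The fitted differences of these genes (-3.10 for *Alpk3*, -2.61 for *Capn3*, -2.22 for *Cbfa2t3* and -2.36 for *Adamtsl2*) depend on the 0.5 counts added to each D0 value, whereas the order of the D2 levels does not. For *Alpk3* the difference ranged from -3.50 to -0.97 over the alternatives tried, the smallest with 1 CPM added to every value.

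The promoters of some of these switched-on genes are shown because MyoD and myogenin bind E-boxes, the motif CANNTG, of which CAGCTG is a form favoured in muscle genes. RefSeq sequences on GRCm38.p6 of the 250 bases before the start were available for 23 of the genes called lower (30 promoters) and 8 called higher (8 promoters). CANNTG, which reads the same on both strands, occurred in 24 of the 30 (80%), in 6 of the 8 (75%) and in 66.2% of all 32851 promoters. CAGCTG, which is contained in the former motif, occurred in 7 of the 30 (23.3%), in 0 of the 8 and in 13% of all promoters. The 2 stretches of *Ccdc134*, a gene called lower, overlap and hold the same CAGCTG, which is counted for both. Promoters of the same gene are thus not independent, and these shares were not tested. Capitals mark each CANNTG in the following sequences, which are the second start of *Cdkn1a* at chr17:29093519-29093768 (plus strand), the first of *Capn3* at chr2:120463343-120463592 (plus strand), the first of *Cbfa2t3* at chr8:122699110-122699359 (minus strand), and that of *Adamtsl2* at chr2:27079129-27079378 (plus strand). Of the 2 starts listed for each of *Cdkn1a*, *Capn3* and *Cbfa2t3*, the one with CAGCTG or with more E-boxes is shown. These sequences are examples and hold CAGCTG more often than the 7 of 30 above. Among other genes called lower, *Acp6* has no E-box in its stretch. *Alpk3*, *Myl6b*, *E2f2* and *Egln3* have E-boxes but no CAGCTG.
Cdkn1a: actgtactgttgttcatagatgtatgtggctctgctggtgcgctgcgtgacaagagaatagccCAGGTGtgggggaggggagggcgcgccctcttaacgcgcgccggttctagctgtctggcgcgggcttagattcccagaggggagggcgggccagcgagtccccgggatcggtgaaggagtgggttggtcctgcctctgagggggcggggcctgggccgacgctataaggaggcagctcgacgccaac
Capn3: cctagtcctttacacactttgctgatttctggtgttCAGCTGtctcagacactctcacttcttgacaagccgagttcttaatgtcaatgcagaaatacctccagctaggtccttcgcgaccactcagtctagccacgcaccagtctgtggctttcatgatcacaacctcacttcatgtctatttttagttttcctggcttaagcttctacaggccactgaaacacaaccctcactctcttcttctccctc
Cbfa2t3: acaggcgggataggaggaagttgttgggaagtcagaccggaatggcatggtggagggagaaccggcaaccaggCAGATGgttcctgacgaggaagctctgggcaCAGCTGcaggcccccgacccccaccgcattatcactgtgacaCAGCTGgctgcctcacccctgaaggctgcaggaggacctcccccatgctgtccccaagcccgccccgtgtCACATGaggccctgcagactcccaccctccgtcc
Adamtsl2: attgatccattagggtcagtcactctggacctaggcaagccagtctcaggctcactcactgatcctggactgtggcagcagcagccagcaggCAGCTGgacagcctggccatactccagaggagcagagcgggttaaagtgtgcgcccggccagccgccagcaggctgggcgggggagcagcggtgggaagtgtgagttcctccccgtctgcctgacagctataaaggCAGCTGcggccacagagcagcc
The stretch before the second start of *Cdkn1a* holds 1 E-box, CAGGTG, and that of *Capn3* holds 1, CAGCTG. *Cbfa2t3* has 4 E-boxes, 2 of them CAGCTG, and *Adamtsl2* has 2, both CAGCTG. The starts not shown hold 0 E-boxes for *Cdkn1a*, 1 for *Capn3* (CATTTG) and 1 for *Cbfa2t3* (CAGGTG). A match is a description of the letters in the window and no evidence of binding.

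The myogenic transcription factors were not called, although several had lower values in KO cells. *Myod1* (chr7:46376474-46379099, plus strand), which encodes MyoD, was at 2.51, 1.53 and 3.42 CPM in WT and 3.1, 3.54 and 3.76 CPM in KO libraries at D0, and at 99.7, 88 and 79 CPM in WT and 47.7, 75.2 and 48.6 CPM in KO libraries at D2. The KO libraries were the lowest at D2, with a log2 difference in response of -1.21 (SE 0.75, unadjusted p = 0.127) made of -1.37, -1.44 and -0.84 in the replicate numbers. *Mef2c*, a cofactor of the MyoD family, had -0.62, -0.73 and -0.33. *Myog*, which encodes myogenin, differed in sign between replicate numbers (0.76, -2.76 and 0.48). Its D2 levels of 532, 386 and 261 CPM in WT were above the 213, 232 and 148 CPM in KO, but its D0 levels were 4.53, 0.775 and 1.23 CPM in WT and 1.07, 3.15 and 0.5 CPM in KO, and the libraries with the highest D0 level, WT replicate 1 and KO replicate 2, had the smallest rise of their genotype. Over the 29 tested genes of the list of myogenic regulators, 23 had a difference below 0 and 6 above, 0 were called, and the median was -0.23 against -0.03 over all genes tested, with -0.23, -0.23 and -0.22 in replicate numbers 1, 2 and 3. Of these regulators 14 (48.3%) were below 0 in all 3 replicate numbers, against 18.5% of all genes tested. Other lists had similar shares, among them the neuromuscular junction (43.8%) and DNA replication (42.9%). The share was 29.1% for the contractile apparatus and 3.57% for sterol and fatty acid synthesis. The sign of this median turned in 2 of the alternatives, 1 of them leaving out WT replicate 2 at D0 (0.03).

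Of the 21 pathway lists, the contractile genes had the lowest median difference, and it varied between replicate numbers. Of 55 tested genes of the contractile apparatus, 41 rose in WT and 38 in KO cells, and 45 had a genotype difference below 0, but 0 were called for it. With the replicate number as a block in the fit, 3 were called lower (*Cap2*, *Ldb3* and *Tpm2*). In that fit the smallest limma adjusted p over all genes was 0.571. The median difference was -0.58, and it was -0.19, -1.22 and -0.32 in replicate numbers 1, 2 and 3. *Myh3*, the embryonic myosin heavy chain, is an example. At D2 it was at 2070, 1001 and 1049 CPM in WT and at 743, 690 and 639 CPM in KO libraries, with all KO libraries below WT. At D0 it was at 11.3, 0.771 and 1.19 CPM in WT and at 0.728, 5.29 and 0.565 CPM in KO libraries, so that its differences were 2.48, -3.31 and 0.36 (mean -0.16, SE 1.46, unadjusted p = 0.916). *Acta1*, skeletal muscle actin, had 0.83, -2.90 and -0.07 with the same 2 libraries high at D0. Without KO replicate 2 at D0 the list median was -0.16, without WT replicate 1 at D0 it was -0.91, without WT replicate 1 at D2 it was -0.25, and without replicate number 2 it was -0.10. No alternative run gave the list median another sign. The 111 genes with 10 CPM and a mean rise over 5 on the log2 scale had a median difference of -0.43. It was 0.32, -1.33 and -0.07 in the replicate numbers. This set includes contractile genes such as *Neb* and *Ttn* and was not formed without them. Whether the low value in replicate number 2 was particular to the contractile genes was thus not tested. Summed over the list, the D2 libraries held 16200, 10000 and 8630 CPM in WT and 8350, 7220 and 6030 CPM in KO cells, without overlap, whereas the D0 sums of 2080 to 2780 and 1850 to 3070 CPM overlapped.

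Whether single muscle genes responded less, or the cultures held fewer differentiating cells, cannot be told apart in bulk RNA. The 8 skeletal muscle marker genes summed to 64.6, 16.7 and 24 CPM in WT and 24.9, 33.3 and 25.6 CPM in KO libraries at D0, and to 5250, 2750 and 2500 CPM in WT and 1840, 1900 and 1520 CPM in KO libraries at D2. Of the 8, 7 had a genotype difference in response below 0 and 0 were called. Their median was -0.60, with 0.15, -1.89 and -0.23 in replicate numbers 1, 2 and 3, and -0.10 without replicate number 2. The D2 sums were thus lower in KO libraries, whereas the difference in response varied between replicate numbers. The part of these markers in the differences of the genes called lower was not tested. The 9 fibroblast markers, of which myoblasts also express collagens, summed to 807 to 5420 CPM in WT and 1300 to 4600 CPM in KO libraries at D0, and to 5470 to 19500 and 7340 to 24700 CPM at D2, with replicate 1 the highest in each group. The adipocyte markers, 8 of them found, summed to 76.2, 70.9 and 54 CPM in WT and 171, 95 and 44.9 CPM in KO libraries at D0, and to 69.1, 61.4 and 84.4 CPM in WT and 251, 214 and 77.7 CPM in KO libraries at D2, so that KO replicates 1 and 2 were high and KO replicate 3 lay within the WT range. Of the 7 tested, 6 had a genotype difference above 0, 0 were called, and the median was 0.75 (0.10 to 1.03 over the alternatives). The largest D2 values came from *Lpl*, lipoprotein lipase, at 188, 116 and 27.4 CPM in KO libraries against 35.8, 29.9 and 32.9 CPM in WT. KO replicates 1 and 2 at D2 are also the high libraries of *Emb*, *Lgals3* and *Fgl2*, and the part of these markers in those differences was not tested. Smooth muscle markers summed to 1170 to 2090 CPM in WT and 826 to 1350 CPM in KO libraries at D2, chondrocyte and osteoblast markers to 69.9 to 194 and 86.1 to 208 CPM, and neural markers to 37.1 to 72.5 and 44.4 to 59.5 CPM, with overlap in each. Summed endothelial markers were at or below 4.26 CPM and macrophage markers at or below 11.7 CPM in every library.

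**Figure D3:**
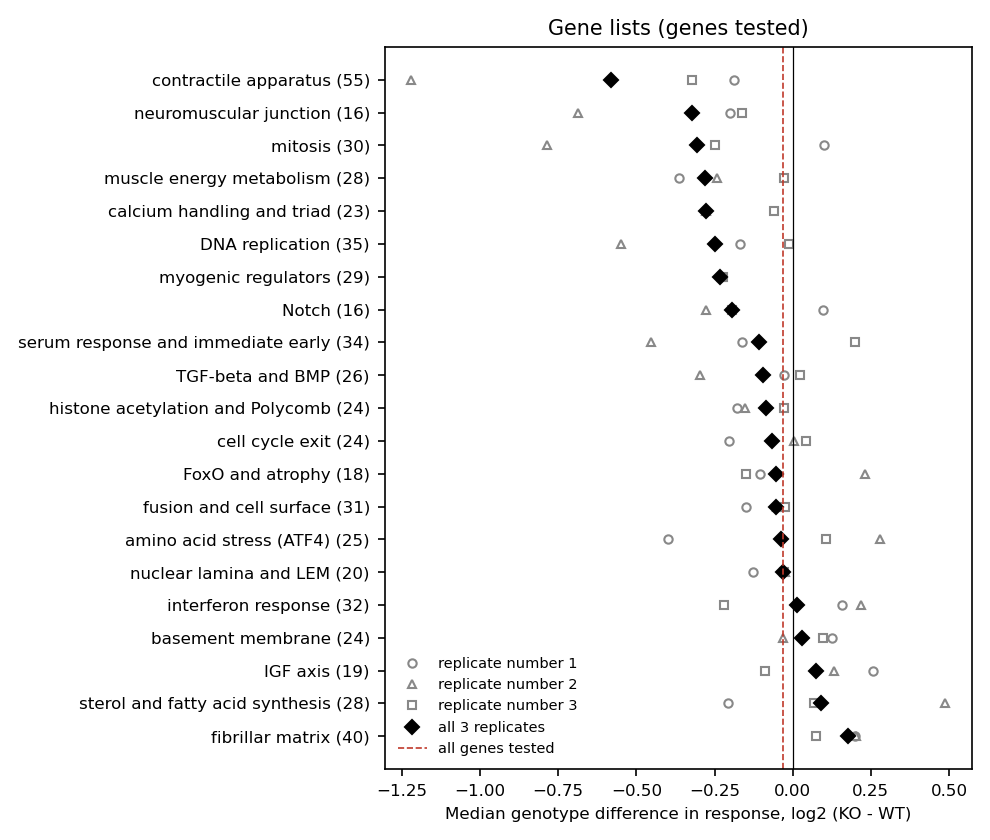
Median genotype difference in response (log2, KO minus WT) of each of the 21 gene lists, with points for the medians within replicate numbers 1, 2 and 3 and a dashed line at the median of all genes tested, -0.03. The contractile list lies lowest at -0.58 with replicate medians from -1.22 to -0.19, whereas the myogenic regulators lie at -0.23 with their replicate medians together.

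Other muscle lists were below 0 with few calls. The 23 genes of calcium handling and the triad had a median of -0.28 with 1 gene called lower (*Srl*), and *Cacnb1*, a calcium channel subunit, had -0.67 (SE 0.43). The 16 genes of the neuromuscular junction had a median of -0.32 with 14 below 0, and the 28 of muscle energy metabolism -0.28 with 22 below 0, and 0 were called in either. Among the contractile genes the smallest p-values belonged to *Tpm2*, a tropomyosin (-0.63, SE 0.32, unadjusted p = 0.0684), and *Csrp3*, a Z-disc protein (-2.04, SE 1.09, unadjusted p = 0.08). In the fusion and cell surface list, 18 of 31 genes were below 0 and the median was -0.05.

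Genes of the cell cycle fell in both genotypes. All 30 tested mitosis genes were called to fall in WT and all 30 in KO cells. Their genotype difference was below 0 for 29 of 30, with a median of -0.31, but the replicate medians were 0.10, -0.79 and -0.25. The 221 genes with 10 CPM and a mean fall of 2 to 3 on the log2 scale had a median of -0.22 (0.01, -0.61 and -0.12) and 83.3% below 0. This set includes mitosis genes such as *Anln* and *Ube2c* and was not formed without them. Whether the values were particular to the mitosis genes was thus not tested. The DNA replication list had 33 of 35 below 0 and a median of -0.25 (-0.17, -0.55 and -0.01). Of both lists, *E2f2* was the gene called, with the opposite course described above. *Mki67*, a marker of cycling cells, fell from 464, 125 and 236 CPM to 33.2, 41.9 and 56 CPM in WT and from 376, 139 and 238 CPM to 54.8, 25.9 and 42.8 CPM in KO libraries, with overlapping groups and a difference of -0.07 (SE 0.63). *Ccnd1*, cyclin D1, fell as well, with a difference of 0.13 (SE 0.62). Without replicate number 2 the medians were -0.08 for mitosis and -0.09 for DNA replication.

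Genes of the nuclear lamina and of proteins with the LEM domain that LAP2 isoforms share gave 0 calls among 20 and a median of -0.03, the value of all genes tested. *Lmna*, the gene of lamin A/C, had a difference of -0.33 (SE 0.59). *Lmnb2*, the gene of lamin B2, had the smallest p-value on the list without reaching 1.5-fold. It was at 47.2, 37.4 and 43.3 CPM in WT and 54.3, 36.2 and 52 CPM in KO libraries at D0, and at 32.2, 32.9 and 29.8 CPM in WT and 24.2, 24.1 and 25.3 CPM in KO libraries at D2. The KO libraries were the lowest at D2 (log2 difference -0.51, SE 0.23, unadjusted p = 0.0417). The *Id1* gene, an inhibitor of MyoD that falls in differentiation, had -0.51 (SE 0.38), and the immediate early genes *Fos* and *Egr1* had -0.22 and -0.67, none of them called.

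Matrix genes gave the highest pathway list median, 0.18 over 40 genes of the fibrillar matrix, 26 of them above 0, but its sign turned in 6 alternatives. *Dcn* (chr10:97479609-97518143, plus strand), which encodes the small proteoglycan decorin, was the list's only called gene. It had 26, 5 and 2 expected counts in WT and 4, 1 and 0 in KO libraries at D0. At D2 it was at 63.8, 49.5 and 30.1 CPM in WT and 60.8, 47.6 and 40.4 CPM in KO libraries. The D2 levels overlapped and the higher fitted response in KO cells (2.63, SE 1.13, unadjusted p = 0.0341) rested on D0 counts near the limit of detection, where the groups overlapped too. With 1 CPM added to every value the difference was 0.43 and was not called, and it was 1.75 and not called without WT replicate 1 at D0. *Col1a1*, type I collagen, had a difference of 0.04 (SE 1.47), and *Lum* and *Mmp3* had 1.96 and -2.47 with every library under 10 CPM and at most 2 expected counts in a WT library at D0. With 1 CPM added these were 0.77 for *Lum* and -0.33 for *Mmp3*.

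Of the genes called higher, *Emb* and *Lgals3* had ample counts in all groups. *Emb* (chr13:117208536-117274415, plus strand) encodes embigin, a cell adhesion glycoprotein and partner of monocarboxylate transporters. It was at 34, 27.6 and 33 CPM in WT and 37, 24.9 and 36.3 CPM in KO libraries at D0, and at 55.4, 29.9 and 35.2 CPM in WT and 152, 110 and 49 CPM in KO libraries at D2. It rose 2.91-fold in KO cells and its 1.24-fold difference in WT cells was not called, giving a log2 difference of 1.24 (SE 0.46, unadjusted p = 0.0162). KO replicate 3, at 49 CPM, lay below WT replicate 1, so that the D2 groups overlapped, and the replicate differences were 1.34, 2.03 and 0.34. Without KO replicate 1 at D2 the *Emb* difference was 0.88 and missed the threshold (unadjusted p = 0.0519). *Lgals3*, galectin-3, was at 97.9, 50.2 and 56.7 CPM in WT and 141, 130 and 74.3 CPM in KO libraries at D2, again overlapping, with a difference of 0.81 (SE 0.37, unadjusted p = 0.0456), which was 0.38 without replicate number 2 and was not called without most single libraries of either genotype. *Fgl2* reached 6.97, 11 and 0.589 CPM in KO libraries at D2 against 0.967, 0.451 and 0.492 CPM in WT, so that its higher D2 level rested on KO replicates 1 and 2. At D0 it was at 0.1439, 0.0861 and 0.2151 CPM in WT and 0.1285, 0.0654 and 0.0484 CPM in KO libraries, near the detection limit. Its replicate differences of 3.01, 5.01 and 2.41 thus depend on these D0 values as well.

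*Malat1* and *Kcnq1ot1*, noncoding RNAs of the nucleus, were called higher, with their largest differences in replicate number 1. *Malat1* (chr19:5795690-5802672, minus strand), an abundant nuclear RNA, was at 1150, 472 and 515 CPM in WT and 352, 588 and 276 CPM in KO libraries at D0, and at 683, 732 and 1049 CPM in WT and 3398, 1125 and 1121 CPM in KO libraries at D2. The KO libraries were the highest at D2, replicate 1 by far, and overlapped with WT at D0. Its log2 difference was 1.77 (SE 0.68, unadjusted p = 0.0187), made of 4.02, 0.30 and 1.00. It was not called without WT replicate 1 at D0 (1.37), KO replicate 3 at D0 (1.53), KO replicate 1 at D2 (1.24) or the whole of replicate number 1 (0.65). *Kcnq1ot1* (chr7:143203458-143296549, minus strand), an antisense RNA of an imprinted region, had 2.53, 0.11 and 0.69, and its D2 levels of 43.3, 25.8 and 26.1 CPM in KO were above the 17.5, 23.8 and 25.2 CPM in WT by little except in replicate 1. Its call was lost without KO replicate 1 at D0 (0.91) or at D2 (0.87), and without replicate number 1 the difference was 0.40. Of the 23 genes called higher, 14 had their largest difference in replicate number 1, as had 25 of the 34 called lower, against 48.9% of all genes tested. The first library of WT cells at D2 also deviated most from its group (root mean square 0.628 on the log2 scale), followed by the first of WT at D0 (0.569) and the first of KO at D2 (0.54).

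**Figure D4:**
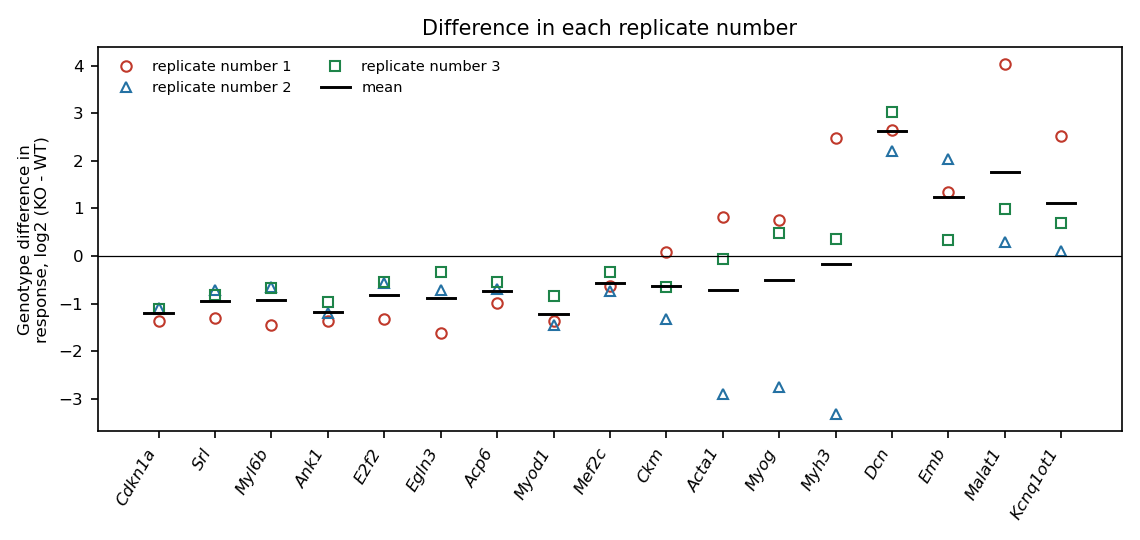
Genotype difference in response (log2, KO minus WT) of 17 genes in replicate numbers 1, 2 and 3, with a bar at the mean. *Cdkn1a* has -1.36, -1.08 and -1.11 in the 3 numbers, *Malat1* and *Kcnq1ot1* have their largest value in number 1, and *Myog*, *Myh3* and *Acta1* change sign between numbers.

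Several called genes share sequence with other genes, which leaves the assignment of their reads uncertain. At least 10% of the 50-base runs of 22 of the 57 called genes (38.6%) also occur in transcripts of another gene, against 15.6% of 17606 tested genes with transcripts, and 13 of the 22 are called higher and 9 lower. They include the smallest p-value of the comparison, *Gm45234* (2.83, 2.89 and 6.54 CPM in WT and 17.3, 31.2 and 13.5 CPM in KO libraries at D0, and 17.5 to 24.1 against 14.4 to 18.4 CPM at D2, log2 difference -2.74, unadjusted p = 0.000461), of whose runs 96.1% are shared and which overlaps *Atn1*, *Grcc10* and *Rnu7* on the same strand. *Rpl27* (-1.65, 23.5% shared), *Rps12* (-4.85, 25%), *Rps13* (-1.61, 17.5%) and *Atp5g2* (-1.92, 38.3%) belong to the same group, whereas for *Cdkn1a* 2.14%, for *Capn3* 6.32% and for *Malat1* 1.64% of the runs are shared. *Mir6236*, with the largest fitted difference (14.81), had 0 expected counts in all WT libraries at D2 and in 2 KO libraries at D0, and gives no usable size.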

How the data were processed

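The authors sequenced polyA RNA as 50-base single-end reads. Trimming by the authors used cutadapt, mapping to transcripts of GRCm38 used NextGenMap, expected counts came from RSEM, sums per gene from tximport, and the authors scaled them with edgeR's TMM factors and limma-voom. The deposited values are these TMM-scaled CPM, with 0.5 counts added to each gene, not on the log scale. The library kit keeps strand, and RSEM was set to take all reads from the reverse strand. Expected counts were recovered from them by inverting this scale. A gene was tested if some group had over 5 expected counts in each of its 3 libraries. Limma 3.58.1 in R 4.3.3 (lmFit, eBayes with a variance trend) was fitted to log2 values of all 18 libraries with a mean for each of the 6 groups, and adjusted p-values are Benjamini-Hochberg over all genes tested. Intervals come from the same fit. Calls needed an unadjusted p under 0.05, more than 1.5-fold and 10 CPM in 1 library compared.

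The genes named are those called with the smallest p and the same sign in every replicate number, up to 10 in each direction, up to 2 members of each list in each direction, and a set of fixed genes. Not all are given, and *Adamtsl2*, *Capn3*, *Cbfa2t3*, *Col23a1*, *Klhl30*, *Iqgap2*, *Lgals3*, *Rps12*, *Rps13*, *Ndufab1-ps*, *Ldb3*, *Cap2*, *Bloc1s2-ps*, *Gm20474* and *Gm10232* were added after their values were seen. The comparison, members and lists were chosen with earlier results of these data known. Whether same-numbered libraries are paired was checked by the correlation of their deviations from group means. Gene positions are from GENCODE M21 on GRCm38. The fit was tested on simulated independent libraries without an effect shared by replicate numbers, which checks the code and not the calls made here. Figures were drawn with matplotlib 3.10.9.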

Additional observations from a re-analysis of the deposited data

Results flagged for a closer look

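Among the genes called or followed by name, 5 went one way in all 3 WT replicate numbers and the opposite way in all 3 KO replicate numbers. *Iqgap2*, which encodes a scaffold protein of the IQGAP family, went from 12.8, 7.19 and 10.7 CPM at D0 to 24.5, 10.5 and 12.9 CPM at D2 in WT libraries and from 10.9, 6.08 and 10.4 CPM to 4.59, 2.01 and 9.1 CPM in KO libraries. Its WT change was not called, its KO change was, and the log2 difference was -1.6 (SE 0.65, unadjusted p = 0.0263). The pseudogene *Ndufab1-ps* had a difference of -1.22 (unadjusted p = 0.0373) and the ribosomal protein gene *Rps13* -1.61 (unadjusted p = 0.0472). *Syne2*, which encodes nesprin-2, a protein that links the nuclear envelope to the cytoskeleton, had a difference of 1.39 with an unadjusted p of 0.202. *Kmt2d*, which encodes a histone methyltransferase, had 0.665 with an unadjusted limma p of 0.144. Neither *Syne2* nor *Kmt2d* was called, although both were with the replicate number as a block in the fit. Opposite responses in every replicate number were found in 116 of all genes tested, and the limma adjusted p of each difference was 0.99999.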

How the results depend on the processing

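The count of 57 genes with a genotype difference in response depended on the processing, and no called gene reversed its sign under any alternative run. It was 52 with voom weights, 57 with library totals, 60 with median-of-ratios scaling, 57 without a filter, 54 with a 1 CPM filter, 46 with the 12 libraries alone and 60 with D0 and Prol together as baseline. It was 103 with 1 CPM added (30 higher, 73 lower), 311 without the 10 CPM minimum, 21 with a log2 difference over 1.5, 0 with an adjusted p, and 35 without genes that share 50-base runs, an alternative chosen after seeing the data. With the replicate number as a block it was 151 (63 higher, 88 lower, including all 57, smallest adjusted p 0.571, limma), 137 with the block as a random effect under voom weights, and 319 when the per-replicate differences were set against 0 in the same block, where the adjusted p called 2 genes, *Gm10232* and *Rps12*. An adjusted p under 0.05 (limma) also called 1 gene without KO_D0 replicate 1 (*Bloc1s2-ps*, adjusted p 0.000278) and 1 without WT_D2 replicate 3 (*Gm20474*, adjusted p 0.038). Of genes not called in the report, the block called *Tpm2*, *Ldb3* and *Cap2* of the contractile list lower, *Cacnb1* lower, and *Syne2* and *Kmt2d* higher. The labels do not say what a replicate number stands for. Same-numbered libraries deviated together with a correlation over 0.1 in 15 of 18 pairs (-0.0358 to 0.645). Each pair within D0 and within D2 was above 0.1, and the exceptions were of replicate 3 across D0 and D2. Other-numbered libraries exceeded 0.1 in 6 of 36 pairs, and 27 of 36 combinations correlated best with their own number. Same-numbered libraries thus shared variation, for which the main fit makes no allowance. Leaving out a library or replicate number gave 46 to 144 genes, among them 144 without WT_D2 replicate 1, 115 without KO_D0 replicate 2, 90 without WT_D0 replicate 1, 89 without KO_D2 replicate 3, 88 without WT_D0 replicate 3 and 88 without replicate number 1. Called under every library left out were 12 of the 57, *Alpk3*, *Srl*, *Egln3*, *Acp6*, *Myl6b*, *Rpl27*, *Atp5g2* and *Gm45234* lower and *Mir6236*, *Gm26905*, *Gm42445* and *Gm37903* higher. Of these, *Rpl27*, *Atp5g2*, *Gm45234*, *Gm26905*, *Gm42445* and *Gm37903* share at least 10% of their 50-base runs with other genes. Without replicate numbers 1, 2 and 3, 18, 24 and 31 of the 57 kept their call, and only 2 kept it whichever number was left out. The WT response counted 1188 genes with a log2 change over 1.5, 5767 without the CPM minimum and 2258 to 4371 with libraries left out, and the KO response 1261, 6168 and 2595 to 4519. With library totals the WT response was 2306 up and 1455 down and the KO response 2205 up and 1777 down, and the median WT change moved from 0.00 to 0.13, while the median genotype difference moved from -0.03 to -0.05. The slope of KO on WT was 0.9102 to 1.063 with libraries left out. Of 609 list medians under the alternatives, 85 had another sign. Depth limits genes near silent at D0, such as *Dcn* and *Alpk3*, whose differences follow from a few counts, and the sequencing lane is not in the labels, so that lane and replicate number cannot be told apart.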
